A study of Mus musculus with 31 samples.

Results

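The 14-3-3 proteins are small acidic adaptors that pair into dimers and clasp other proteins at short motifs carrying a phosphorylated serine or threonine. By holding their partners they change where these lie in the cell, what they can bind and whether they are active, and they are known for keeping the cell death protein Bad, Cdc25 phosphatases, FoxO transcription factors and class IIa histone deacetylases in check. They are among the abundant soluble proteins of brain, and the sigma form differs from the others in being largely a protein of epithelia and a target of p53. The mouse family has 7 genes, Ywhab (beta), Ywhae (epsilon), Ywhag (gamma), Ywhah (eta), Ywhaq (theta), Ywhaz (zeta) and Sfn (sigma). Every row of the deposited array table that carries the name of one of them was taken, whatever its values. These were 6 of 20794 rows, for 4 of the 7 genes: 3 rows for Ywhab (rows 4801, 5608 and 15763) and 1 row each for Ywhae (row 9554), Ywhag (row 19217) and Sfn (row 7246). Ywhah, Ywhaq and Ywhaz had no row and were not analysed.

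Dll1 encodes a ligand of the Notch receptors, which neighbouring cells use to steer each other's differentiation. Thymus, spleen, brain and liver of male mice of a Dll1 mutant line aged 17 weeks were compared with RNA pooled from wild-type males of the same organ aged 18 weeks, on cDNA arrays that read both RNAs together in the dyes Cy3 and Cy5. The labels give neither the allele nor the zygosity of the mutants, whereas the study describes heterozygous Dll1tm1Gos mice on a C3H background with other numbers for mice, age and RNA, so it is not certain that these are the animals it describes. Each organ had 4 mutant mice with 2 arrays apiece, between which the dyes were exchanged, save for thymus of mouse 2 with a single array (mutant RNA in Cy5). The pool stands for the wild type as 1 control sample, with 4 animals in its list of mice and 6 in the protocol, so the spread between wild-type mice enters no test here.

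The 31 arrays gave 12923 to 20663 values each (median 20376). Both arrays of spleen mouse 1 stood apart, lacking 37.9% and 24.8% of rows, followed by 1 brain array of mouse 4 at 21.8% and the single thymus array of mouse 2 at 7.71%. The 2 arrays of a mouse hardly resembled each other over all rows. Their correlations ran from 0.03 to 0.13 in thymus, -0.08 to 0.03 in spleen, -0.11 to 0.06 in brain and -0.19 to -0.02 in liver. Row 16, named Dll1, averaged -0.85 in thymus (3 mice), 0.66 in spleen and 0.15 in brain, and Dll1 row 20300 averaged -0.09, -0.57 and -0.35 there and -0.38 in liver. The name of row 20300 is uncertain, as it stands among the final rows. None of these passed the test, and the labels do not say that the Dll1 transcript should be lowered.

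All values below are log2 ratios, taken as mutant over pool, so that a negative value stands for less signal in the mutant than in the pool. That direction is likely rather than settled, its basis being the mutant RNA as channel 1 in the labels of every array, and the opposite reading would turn every sign. A ratio holds no level, so neither the order of the 4 genes within an organ nor the identity of an organ by its marker genes can be read from it. Fewer cells of a type and less RNA per cell cannot be told apart in such bulk samples.

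The gene names rest on an inferred offset, since rows took the gene listed 11 places before them. Over the whole table, pairs of rows of the same gene correlated with a mean of 0.037 within arrays at this offset, against 0.0045 at the numbers as listed and at most 0.0087 at any other offset up to 50 places. It was the highest in 13 of 20 equal parts of the table and, by organ and dye, in 4 of 8 sets of arrays. The other sets were Cy5 in spleen (0.0191 against 0.0197), brain (-0.0061 against 0.027) and liver (-0.00046 against 0.016) and Cy3 in liver (0.0216 against 0.0225). Of the parts that hold the member rows, the offset gave the highest value around Ywhab row 15763 (0.041), Ywhag (0.051) and Sfn (0.036). It did not around Ywhab row 4801 (0.0067 against 0.018 elsewhere), Ywhab row 5608 (0.0205 against 0.0210) and Ywhae (0.0087 against 0.018). The names of these 3 rows are thus less secure than those of the others. The 3 Ywhab rows correlated with each other at 0.17 to 0.62 over 30 or 31 arrays, where the 5000 same-gene pairs had a median of 0.047 with quartiles of -0.14 and 0.23. The rows that the numbers as listed would call Ywhab correlated at -0.04 to 0.32. Agreement of the 3 Ywhab rows differed by dye. They correlated at 0.60 to 0.69 with the mutant RNA in Cy3, where same-gene pairs had quartiles of -0.17 and 0.30. With it in Cy5 they correlated at -0.48 to 0.48, against quartiles of -0.21 and 0.27. These arrays share pools, mice and dyes, so the correlations are descriptive.

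In brain, Ywhab and Ywhae were below the pool in every mutant mouse (gene means of -0.42 and -0.51), but no 14-3-3 row passed the threshold of 0.05 after adjustment. Ywhab encodes the beta form, a partner of many kinases. Row 5608 stood at -0.63, -0.79, -0.46 and -0.38 in mice 1 to 4. Row 15763 stood at -0.41, -0.55, -0.44 and -0.29, and row 4801 at -0.15, -0.30, -0.28 and -0.39. All 12 of these values lay below 0, and mouse 2 was lowest in both rows with the larger shifts. The means were -0.57 ± 0.18 for row 5608, -0.42 ± 0.11 for row 15763 and -0.28 ± 0.10 for row 4801 (SD, 4 mice). The mean over the 3 rows was -0.42 ± 0.08, with a 95% interval of -0.80 to -0.04 and an adjusted p of 0.396 over all gene means (limma).

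Ywhae encodes the epsilon form, which in humans lies in the region lost in Miller-Dieker lissencephaly and takes part in neuronal migration. Its row was at -0.23, -0.57, -0.54 and -0.73 in the brains of mice 1 to 4, a mean of -0.51 ± 0.21 (95% interval -0.96 to -0.07, adjusted p = 0.420, limma). Ywhag, the gamma form, split the mice, with -0.63 and -0.39 in mice 1 and 2 and 0.09 and 0.06 in mice 3 and 4. Its mean of -0.22 ± 0.35 was smaller than the spread between mice. Sfn, the sigma form, had values on both arrays in 3 brains, at -1.51, 0.15 and -1.01 in mice 1 to 3. Its mean of -0.79 was the lowest of the 6 rows, yet its SD of 0.85 was larger than the mean, and mouse 2 lay on the other side of 0. With the single Cy3 array of mouse 4 (0.52) kept, the mean was -0.46.

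In brain 0 of 6 member rows were called, as were 0 of all 19102 rows tested (0%). At an unadjusted p under 0.05, 3 of the 6 rows were lower (both Ywhab rows with the larger shifts and Ywhae), against 4.44% of all rows. Of the 5 member rows with 4 mice, 4 (Ywhab and Ywhae) were below 0 in 4 of 4 mice, against 17.6% of all such rows. The 3 rows of Ywhab share mice, arrays and a transcript and do not count as separate evidence.

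**Figure D1:**
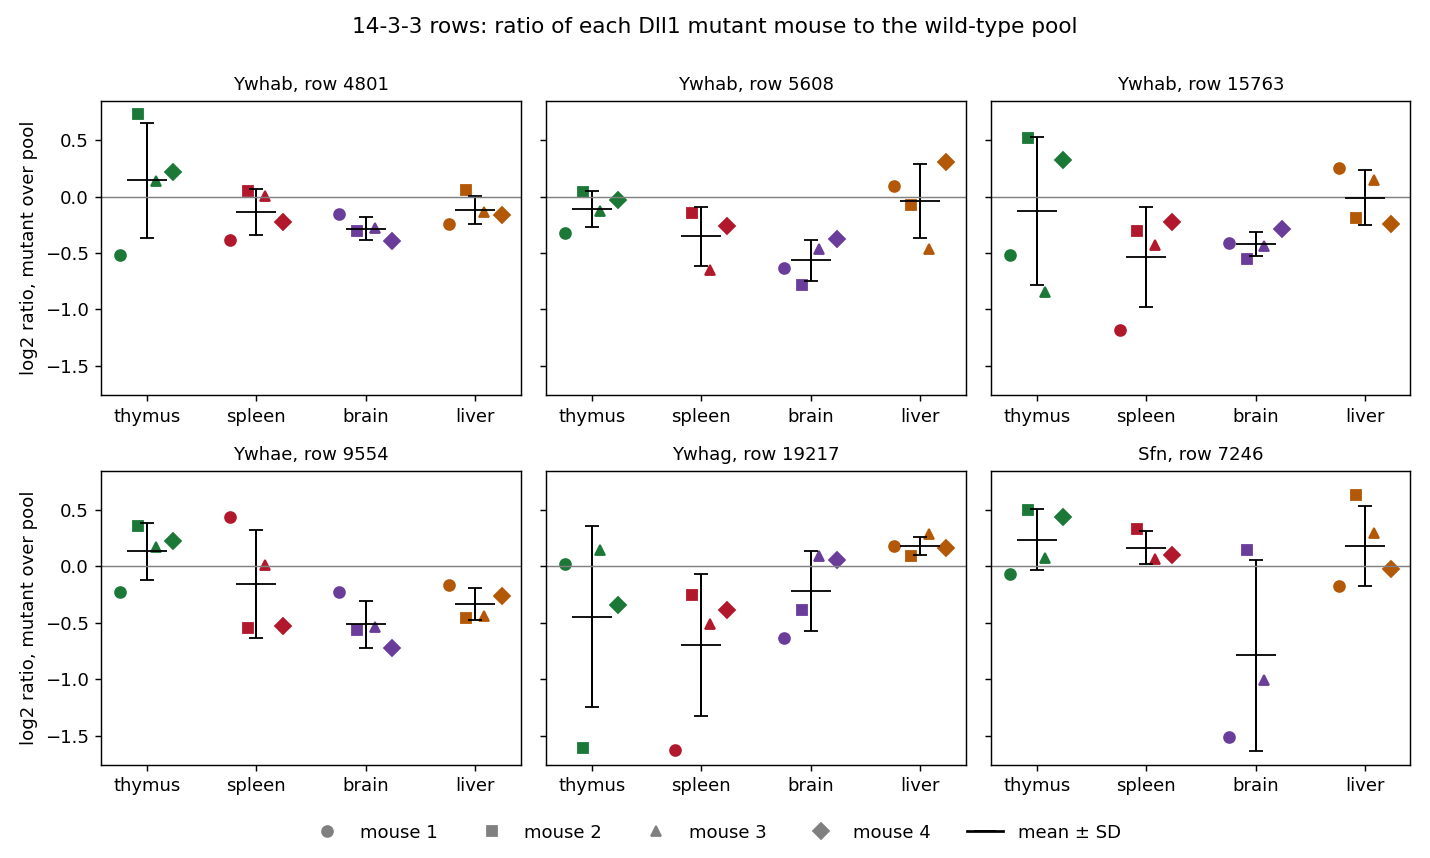
Log2 ratio of each mutant mouse over the wild-type pool (y axis) by organ (x axis) for the 6 rows of 14-3-3 genes. Symbols stand for mice 1 to 4, and the black bars for the mean ± SD over mice. The 3 Ywhab rows and Ywhae lie below 0 in all 4 brains, and Ywhag has 1 low mouse in thymus (-1.61) and 1 in spleen (-1.62). Ywhag lies above 0 in all 4 livers, as the mean of Cy5 arrays above 0 and Cy3 arrays below 0.

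In spleen the rows of the beta and gamma forms had means below 0, and again 0 of 6 member rows were called (0 of all 19591 rows, 0%). Ywhag was at -1.62, -0.25, -0.51 and -0.38 in mice 1 to 4, all 4 below 0 (as were 13.9% of all rows with 4 spleens), with a mean of -0.69 ± 0.63 (limma, unadjusted p = 0.0381, adjusted p = 0.454). Mouse 1 set the size of this mean, which was -0.38 without it. Ywhab row 15763 was at -1.19, -0.30, -0.43 and -0.22, a mean of -0.54 ± 0.44 (limma, unadjusted p = 0.0476, adjusted p = 0.466). Here too mouse 1 was lowest, and the mean without it was -0.32. Mouse 1 is the mouse whose spleen arrays lacked the most values, and its part in these means beyond the values given was not tested.

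The other Ywhab rows were closer to 0 in spleen, with means of -0.35 ± 0.26 for row 5608 (3 mice, all below 0) and -0.14 ± 0.21 for row 4801 (2 of 4 mice below 0). The mean over the Ywhab rows was below 0 in 4 of 4 spleens, at -0.78, -0.13, -0.36 and -0.23. In mouse 1 it rests on 2 rows, since row 5608 had a value on the Cy5 array alone (1.23) and a mouse counted only with both arrays. With single arrays kept, the mean of row 5608 was 0.043 and that of the gene -0.21. Ywhae went both ways in spleen, at 0.44 in mouse 1 and -0.55, 0.016 and -0.53 in mice 2 to 4. Sfn was at 0.33, 0.07 and 0.10 in mice 2 to 4, and mouse 1 had a Cy3 array alone (-1.64). With that array kept its mean was -0.28 in place of 0.17, and it was -0.11 on the Cy5 arrays alone and -0.07 on the Cy3 arrays alone. At an unadjusted p under 0.05, 2 of the 6 rows were lower in spleen, against 5.1% of all rows.

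In liver, Ywhae was below the pool and Ywhag above it in every mouse, both by small amounts. Ywhae stood at -0.17, -0.45, -0.44 and -0.26 in mice 1 to 4, a mean of -0.33 ± 0.14 (limma, unadjusted p = 0.0569, adjusted p = 0.921). Ywhag stood at 0.18, 0.10, 0.29 and 0.16, a mean of 0.18 ± 0.08 (adjusted p = 0.921, limma). Each of these Ywhag values averages a Cy5 array above 0 and a Cy3 array below 0, with means of 0.79 and -0.43. Among all rows with 4 livers, 5.65% were below 0 and 7.44% above 0 in 4 of 4 mice. The Ywhab rows lay around 0, with means of -0.12, -0.03 and -0.0070 for rows 4801, 5608 and 15763. Sfn ranged from -0.17 to 0.63. None of the 6 rows was called, nor any of the 19973 rows of liver (0%), and 0 of the 6 reached an unadjusted p under 0.05 (1.79% of all rows did so lower and 2.7% higher).

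In thymus no member lay on one side of 0 in all mice (6.92% of all rows with 4 mice were below 0 and 6.16% above 0 in each of them), and 0 of 6 rows were called (0 of all 20185 rows, 0%). The Ywhab rows had means of 0.15 ± 0.51, -0.11 ± 0.16 and -0.13 ± 0.66 for rows 4801, 5608 and 15763, and their gene mean was -0.03. Mice 1 and 2 stood at opposite ends of row 4801, at -0.51 and 0.73. Ywhag was at 0.02, -1.61, 0.15 and -0.34, a mean of -0.45 ± 0.80. The low value was that of mouse 2, whose single array was corrected for dye, and without it the mean was -0.06. Ywhae (0.13 ± 0.25) and Sfn (0.24 ± 0.27) were each above 0 in 3 of 4 mice. No member row reached an unadjusted p under 0.05 in thymus, where 2.44% of all rows did so lower and 0.684% higher.

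Single arrays differed by which dye labelled the mutant, most of all in brain. Ywhab row 5608 in brain was at -0.21, -0.14, 0.27 and 0.08 in mice 1 to 4 where Cy5 carried the mutant RNA, and at -1.05, -1.43, -1.20 and -0.83 with it in Cy3. The 2 sets did not overlap, and the share of all brain rows parted in this way is not given here. The means of the other rows in brain, Cy5 before Cy3, were 0.07 and -0.92 for Ywhab row 15763, 0.12 and -0.69 for Ywhab row 4801, and 0.32 and -0.76 for Ywhag. Ywhae differed less, with -0.32 in Cy5 and -0.71 in Cy3. All 5 of these rows were below 0 on 4 of 4 Cy3 arrays, against 22.5% of all brain rows, whereas 0 of the 5 were below 0 on 4 of 4 Cy5 arrays (5.9% of all brain rows).

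Sfn ran the other way in brain, at -2.25, -0.90 and -1.65 in mice 1 to 3 with the mutant RNA in Cy5 and at -0.77, 1.20, -0.36 and 0.52 in mice 1 to 4 with it in Cy3. Its low mean in brain thus came from the Cy5 arrays, and that of Ywhab from the Cy3 arrays. In a fit of the single arrays with dye as a term and mouse as a random block, the difference between the orientations, Cy5 minus Cy3, was 1.13 ± 0.30 for Ywhab row 5608 (SE, adjusted p = 0.0751), 0.99 ± 0.30 for row 15763 (adjusted p = 0.0996) and -1.75 ± 0.55 for Sfn (adjusted p = 0.115). No member passed the adjusted threshold (limma), nor did any brain row (0%). At an unadjusted p under 0.05 the dye term held 5 of the 6 member rows in brain, all but Ywhae, against 24.1% of all brain rows.

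The 4 brain arrays whose mutant RNA was in Cy3 gave calls when fitted alone. Row 5608 of Ywhab passed (-1.13, adjusted p = 0.0440, limma), beside 3.4% of all rows called lower on these arrays. Of gene means, Ywhab (-0.91 ± 0.22, adjusted p = 0.0371) and Ywhae (-0.71 ± 0.13, adjusted p = 0.0464) passed, beside 6.79% of all gene means called lower. Ywhag missed the threshold (-0.76 ± 0.38, adjusted p = 0.0609). On the 4 arrays whose mutant RNA was in Cy5, Ywhab averaged 0.06 ± 0.09 and Ywhag 0.32 ± 0.56, and no gene mean of any gene was called (0%). The Cy3 arrays of different mice also resembled each other more in brain over all rows (correlations of 0.35 to 0.42) than the Cy5 arrays did (-0.01 to 0.10).

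**Figure D2:**
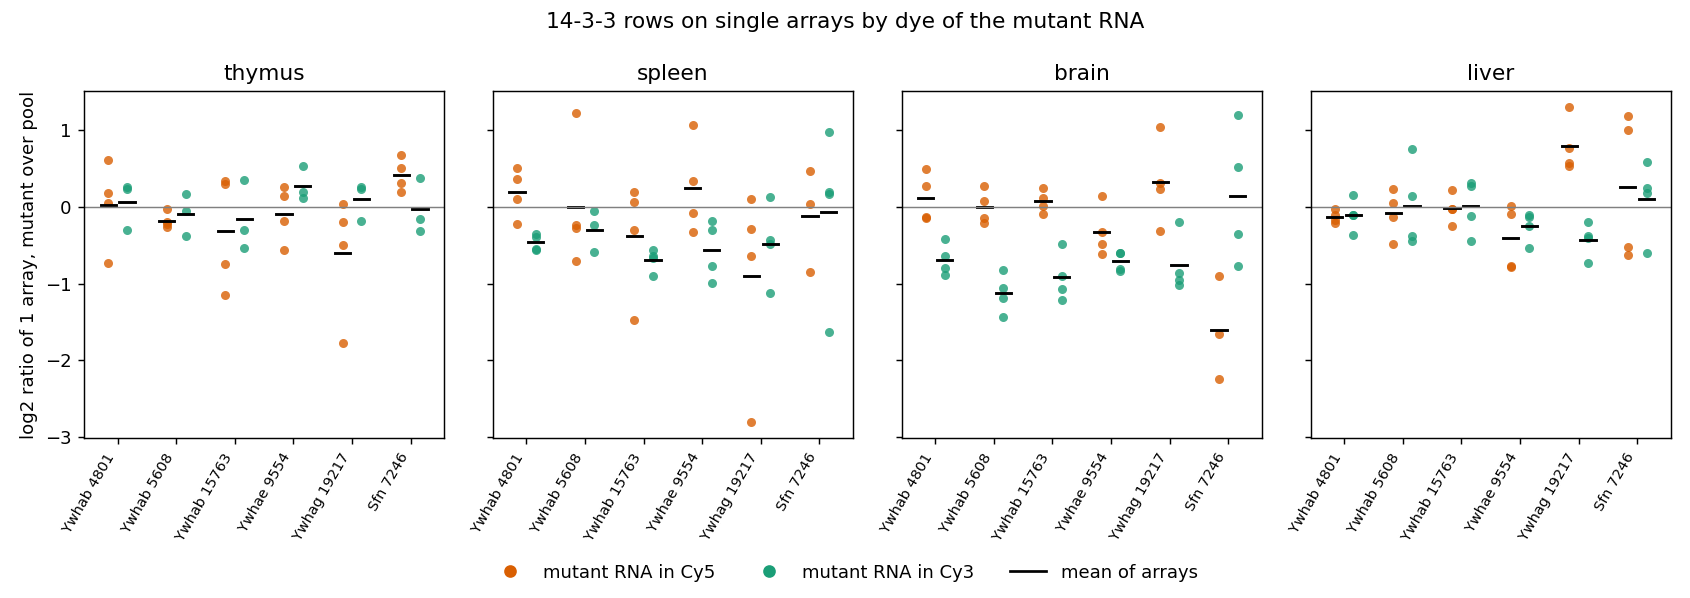
Log2 ratio of single arrays (y axis) for each 14-3-3 row (x axis) in the 4 organs, with the arrays that carry the mutant RNA in Cy5 left of those with it in Cy3, and a black line at the mean. In brain the Cy3 arrays of the Ywhab, Ywhae and Ywhag rows all lie below 0, and the Cy5 arrays of Sfn lie between -2.25 and -0.90. In liver the Ywhag arrays lie above 0 in Cy5 and below 0 in Cy3.

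Ywhag in liver lay on opposite sides of 0 in the 2 orientations. Its arrays stood at 0.77, 0.57, 1.31 and 0.53 in mice 1 to 4 with the mutant RNA in Cy5, and at -0.40, -0.38, -0.73 and -0.20 with it in Cy3. The dye term was 1.22 ± 0.28 (SE, unadjusted p = 0.00142, adjusted p = 0.137, limma), in an organ where 0.00491% of rows passed the adjusted and 16.3% the unadjusted threshold for dye. Of all liver rows, 12% were above 0 on every Cy5 array and 12.2% below 0 on every Cy3 array, and the share with both is not given here. The ratio of 0.18 above the pool is the mean of these 2 opposite sets. In spleen the orientations went apart for Ywhae (0.25 in Cy5, -0.56 in Cy3) and Ywhab row 4801 (0.19 in Cy5, -0.46 in Cy3), while Ywhag was below 0 in both (-0.91 in Cy5, -0.48 in Cy3). The Ywhag mean in Cy5 holds 1 value of -2.81, from mouse 1. Ywhae in liver was on the same side in both orientations, at -0.41 in Cy5 and -0.25 in Cy3.

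Rows of neuron, astrocyte and erythroid markers also had medians below 0 in brain, while those of B cells (0.46, 4 rows) and of epithelium and thymus stroma (0.96, 6 rows) were above 0. The 6 member rows had a median of -0.47 in brain (0.03 in Cy5, -0.73 in Cy3), against 0.04 for all rows tested (0.06 in Cy5, 0.05 in Cy3). Of all brain rows tested, 8897 of 19102 were below 0. Rows of neuron markers had a median of -0.31, with 12 of 18 rows below 0, and rows of astrocyte markers one of -0.39, with 11 of 13 below 0. Both differed by dye as well, with 0.02 in Cy5 and -0.70 in Cy3 for neurons and -0.02 in Cy5 and -0.86 in Cy3 for astrocytes. Oligodendrocyte marker rows stood at -0.11 (5 of 9 below 0). Erythroid marker rows, mostly of the alpha globin gene Hba-a1, had a median of -0.65, with 6 of 8 below 0 (-0.16 in Cy5, -1.28 in Cy3). The part of these cells in the 14-3-3 ratios was not tested. In spleen the member rows had a median of -0.25 (0.09 for all rows, of which 7983 of 19591 were below 0). There all 6 B cell marker rows (median -0.81, with -0.34 in Cy5 and -1.29 in Cy3) and all 8 erythroid marker rows (median -0.56, with 0.016 in Cy5 and -1.01 in Cy3) were below 0, and their part in the 14-3-3 ratios was not tested either. The keratinocyte markers, which bear on Sfn, had medians of 0.04 in thymus, -0.03 in spleen, -0.0084 in brain and 0.03 in liver. These rest on 5 rows each, or 4 in brain. The rows ranged from -0.24 to 0.22 in thymus, -0.87 to 0.75 in spleen, -0.02 to 1.37 in brain and -0.13 to 0.12 in liver. Their medians in Cy5 and Cy3 were 0.16 and -0.20 in thymus, -0.41 and 0.07 in spleen, 0.28 and 0.01 in brain and 0.46 and -0.20 in liver.

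**Figure D3:**
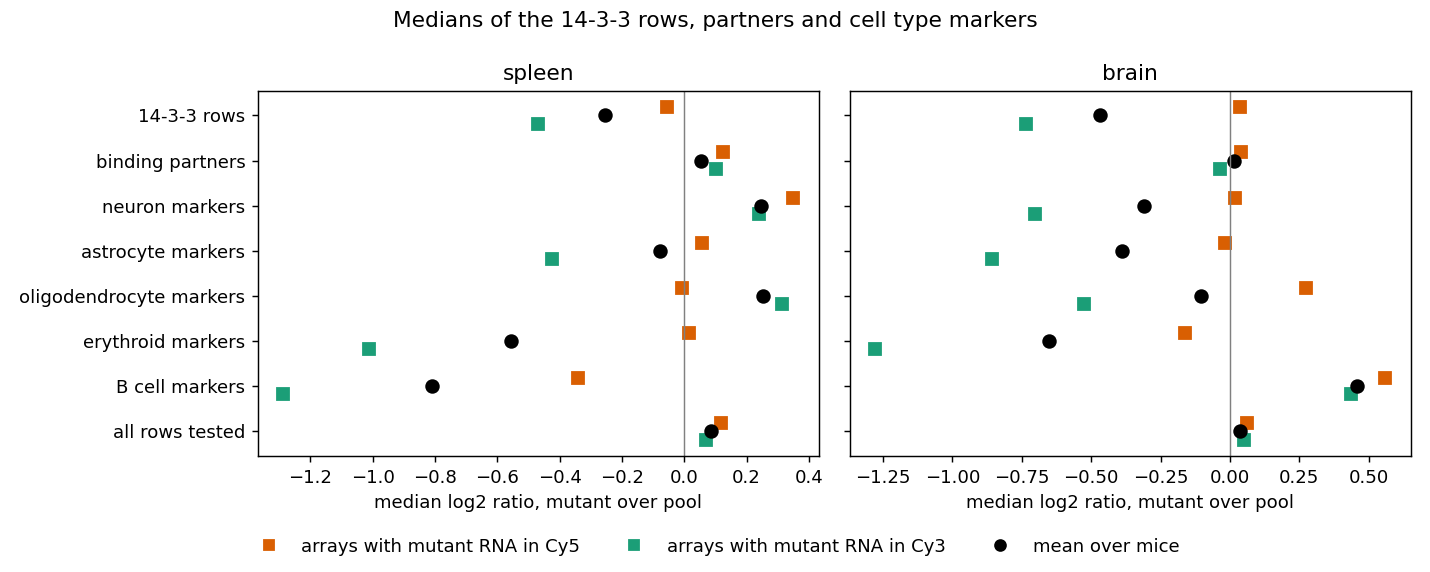
Median log2 ratio over the rows of each list (x axis) in spleen and brain, as the mean over mice (black) and on arrays with the mutant RNA in Cy5 (orange) or Cy3 (green). In brain the 14-3-3 rows (-0.73), neuron markers (-0.70) and astrocyte markers (-0.86) lie together on the Cy3 arrays, while the binding partners stay near all rows tested.

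The organs were then set against each other, since a shift in one organ and none in another needs the test of the difference. The mice carry the same numbers in each organ, but this fit took the 2 organs of a pair as independent groups. With mouse as replicate block, the smallest adjusted p of a 14-3-3 gene mean was 0.620 (limma). The intervals and p-values below are those of the unpaired fit. No 14-3-3 gene passed in any of the 6 pairs of organs, and over all gene means 0% passed in 5 pairs and 0.0119% in brain minus liver. The differences with the smallest p-values were those of Ywhae and Ywhag. Ywhae averaged 0.13 in thymus and -0.51 in brain, a difference of 0.65 (95% interval 0.16 to 1.14, limma, unadjusted p = 0.0146, adjusted p = 0.460). The difference between thymus and liver was 0.46 (0.05 to 0.88, adjusted p = 0.912). Ywhag averaged -0.69 in spleen and 0.18 in liver, a difference of -0.88 (-1.55 to -0.21, limma, unadjusted p = 0.0155, adjusted p = 0.556). Without mouse 1 this was -0.57.

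Sfn averaged 0.24 in thymus and -0.79 in brain, a difference of 1.03 (95% interval 0.15 to 1.90, adjusted p = 0.467, limma), and brain minus liver was -0.97 (-1.86 to -0.08, adjusted p = 0.548). Ywhab averaged -0.38 in spleen and -0.42 in brain, a difference of 0.05 whose interval of -0.48 to 0.57 leaves room for a shift of either sign. The spleen mean was -0.24 without mouse 1 and -0.06 on the Cy5 arrays alone. Brain minus liver was -0.37 for Ywhab (-0.77 to 0.03, adjusted p = 0.563). At an unadjusted p under 0.05, 2 of the 4 gene means passed between thymus and brain, against 10.5% of all gene means, 1 of 4 between spleen and liver, against 8.13%, 1 of 4 between thymus and liver, against 4.17%, and 1 of 4 between brain and liver, against 8.86%. The pools of the 4 organs are separate control samples, so a difference between organs also holds the difference between 2 pools.

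**Figure D4:**
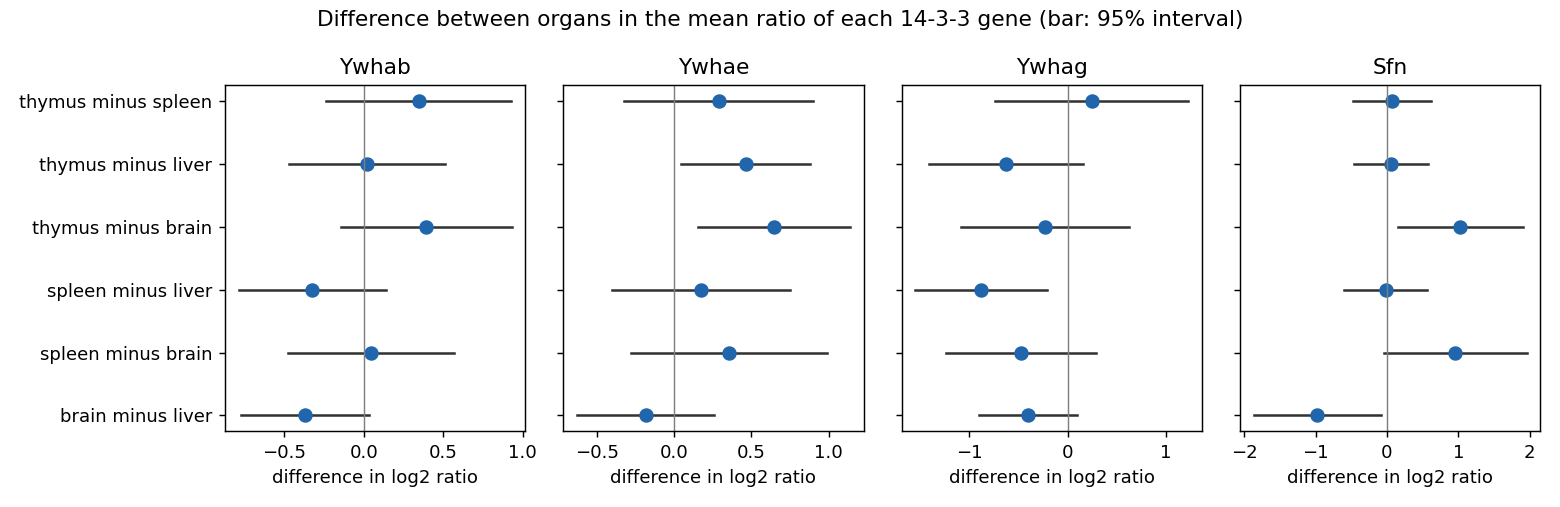
Difference in mean log2 ratio between 2 organs (x axis) for the 6 organ pairs (y axis) and the 4 genes with a row. Bars are 95% intervals from the fit that took the 2 organs as independent groups. The interval lies off 0 for Ywhae in thymus minus brain (0.65) and thymus minus liver (0.46), Ywhag in spleen minus liver (-0.88) and Sfn in thymus minus brain (1.03) and brain minus liver (-0.97), none of which passed after adjustment.

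Genes that the 14-3-3 proteins act on, or that phosphorylate their binding sites, had medians close to 0 when taken as 1 list. Of 91 such partner genes, 64 had a row. Their rows had medians of 0.04 in thymus (114 rows), 0.06 in spleen (110 rows), 0.01 in brain (105 rows) and -0.01 in liver (110 rows), and 0 rows were called in each organ. At an unadjusted p under 0.05, 9 partner rows were lower and 11 higher in brain, 6 lower and 7 higher in spleen, 1 lower and 2 higher in liver and 2 lower and 1 higher in thymus. Of all rows, 4.44% were lower and 7.25% higher in brain by this rule, and 5.1% lower and 5.57% higher in spleen. Medians of single groups of partners lay on both sides of 0. In spleen the rows of cytoskeleton and traffic genes had a median of -0.23 (21 of 31 below 0, 0.017 in Cy5 and -0.37 in Cy3). Those of Hippo, histone deacetylase and CREB coactivator genes, with Snai1 and Mlxipl, had one of 0.31 (1 of 11 below 0). Of all spleen rows tested, 7983 of 19591 were below 0. In brain 2 of 18 rows of kinases that act on the binding sites were lower and 6 higher at an unadjusted p under 0.05.

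In brain the partner rows with the smallest p-values were those of Pafah1b1, Foxo4 and Akt2. Pafah1b1, the Lis1 protein of the dynein pathway to which Ywhae is linked in neuronal migration, was at -0.38, -0.97, -0.76 and -0.94 in mice 1 to 4. Its mean of -0.76 was -0.24 in Cy5 and -1.28 in Cy3. The Ywhab, Ywhae and Ywhag rows and the medians of neuron and astrocyte markers had this order of the dyes in brain too, and Sfn did not. The gap was smaller in Ywhae (-0.32 in Cy5, -0.71 in Cy3). Foxo4, a transcription factor that 14-3-3 proteins hold in the cytoplasm, averaged -0.99 in 3 mice, with the dyes in the other order (-1.48 in Cy5, -0.09 in Cy3). A row of Akt2, a kinase that phosphorylates 14-3-3 binding sites, averaged 0.70, at 0.68, 0.33, 0.71 and 1.09 in mice 1 to 4. The smallest adjusted p in brain was 0.420 (limma).

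In spleen, Foxo1 averaged 0.58 (1.20 in Cy5, -0.03 in Cy3) and another row of Akt2 0.54 (0.68 in Cy5, 0.41 in Cy3). Both were above 0 in 4 of 4 mice, a pattern whose share over all spleen rows is not given here. The intermediate filament gene Vim averaged -0.70 in 3 mice. In liver, Bag3, a co-chaperone whose binding to 14-3-3 gamma is known, averaged 1.41, at 1.46, 1.33, 0.65 and 2.22 in mice 1 to 4. It was above 0 in both orientations (1.63 in Cy5, 1.19 in Cy3), with an unadjusted p of 0.000693 and an adjusted p of 0.921 (limma). The ubiquitin ligase Nedd4l averaged 0.61 and Tsc1, of the tuberous sclerosis complex upstream of mTOR, -0.42. In thymus the tryptophan hydroxylase Tph1, the relative of a founding 14-3-3 partner, averaged -1.71 (unadjusted p = 0.000295, adjusted p = 0.860, limma), Hdac5 averaged -1.40 in 3 mice and Snai1 0.35. The rows of Tph1 and Tsc1 are in the final of the 20 parts, in which the offset gave -0.0035 against 0.019 elsewhere, and those of Vim, Nedd4l and Hdac5 in the part of Ywhab row 4801, so their names are uncertain.

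Over the 16 organ samples of the mice, Ywhab, Ywhae and Ywhag had all values, and Sfn did not. Ywhab correlated with Ywhae at 0.19 and with Ywhag at 0.04, and Ywhae with Ywhag at -0.63, near the foot of the 3954 genes with all values. The genes most like Ywhab were Tle4 (0.90), a corepressor of the Groucho family, Tnrc6b (0.89), a protein of microRNA silencing, and Ddx20 (0.88), a helicase of the SMN complex. Those most like Ywhae were Lpgat1 (0.85), an acyltransferase, Nucks1 (0.83), a nuclear phosphoprotein, and the splicing factor Srsf2 (0.82). Those most like Ywhag were the LIM domain gene Csrp1 (0.88), the O-mannosyltransferase Pomt2 (0.88) and Uvrag (0.85), which acts in autophagy. These are the highest of many correlations over few samples that share mice, pools and dyes, and 1 of the 2 rows of Tle4 is in that uncertain final part.

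On single arrays the likeness again differed between the orientations. Where Cy5 labelled the mutant, Ywhab row 5608 correlated at -0.48 with row 15763 and at -0.27 with row 4801, and rows 4801 and 15763 correlated at 0.48 (16 arrays). Where Cy3 did, the 3 Ywhab rows correlated at 0.60 to 0.69 (14 or 15 arrays of the 4 organs), and Ywhab row 4801 with Ywhae at 0.76. Ywhae and Ywhag correlated at -0.75 in Cy5 and 0.40 in Cy3. Sfn stood apart, with correlations between -0.37 and 0.06 with the other rows in either orientation.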

How the data were processed

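The authors scanned 2-colour cDNA arrays and deposited 1 log2 ratio per row and array. Normalization, filter and direction of the ratio are not given in the sources used here. Values beyond 12 in size were dropped, and nothing was renormalized. Names came from GEO's platform annotation (12760 of 20794 rows, 9026 genes). A mouse's ratio was the mean of its dye-swapped pair, and missing unless both arrays had a value. The single thymus array of mouse 2 was corrected per row by the mean dye effect of the other mice. Limma 3.58.1 (R 4.3.3, intercept and empirical Bayes) set the ratios of an organ against 0 for rows present in 3 or 4 mice, with Benjamini-Hochberg adjustment over all rows or gene means at 0.05, and compared organs by a fit with 2 groups. These fits were tested on simulated data. Descriptive tables used Python 3.11.15, pandas 2.3.3 and numpy 2.4.6. Members, partner and marker lists were chosen with earlier results of these data known. Named genes are all family rows, Dll1, the 3 partner rows with the smallest p in each organ and the 3 genes most correlated with each member that had all values. The mice of a group are separate animals, and their number limits the precision. Alternatives left out each mouse, kept 1 dye, added a dye term or mouse block, centred or scaled arrays, and changed filters, moderation, direction and names.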

Additional observations from a re-analysis of the deposited data

Results flagged for a closer look

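Ywhag differed in sign between spleen and liver. It was below the pool in 4 of 4 spleens (-1.62, -0.25, -0.51 and -0.38 in mice 1 to 4) and above it in 4 of 4 livers (0.18, 0.10, 0.29 and 0.16), a difference of -0.88. This was the 1 of 24 combinations of a gene and an organ pair in which every mouse lay on opposite sides of 0. Among all rows with 4 mice, 13.9% were below 0 in 4 of 4 spleens and 7.44% above 0 in 4 of 4 livers. The share with both is not given here, so how unusual this split is cannot be read from it. The test of the difference did not pass (adjusted p = 0.556, limma), and the liver values were means of opposite dye orientations (0.79 in Cy5, -0.43 in Cy3). Among 25 sets of 4 mice no single mouse stood apart by Dixon's test at 95%, which with 4 values can flag only an extreme mouse. It does not settle how far mouse 1 set the Ywhag mean in spleen (-0.69, and -0.38 without it).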

How the results depend on the processing

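Among the 19 alternatives, 14-3-3 rows or gene means were called in brain on the Cy3 arrays alone and in no other setting. Of 673 values under alternatives other than leaving out a mouse, 615 were counted as unchanged and 49 as changed in sign. Partner medians counted as unchanged could still cross 0. Those of spleen (0.055) and brain (0.014) were both -0.045 with arrays centred. With arrays centred and scaled they were -0.049 and -0.029. With a value required in all 4 mice that of brain was -0.024. With Cy5 arrays alone the following changed sign. In thymus this gave Ywhae row 9554 -0.087. In spleen it gave Sfn row 7246 -0.11, Ywhab row 4801 0.19, Ywhab row 5608 0.00075 and Ywhae row 9554 0.25. In brain it gave Ywhab gene mean 0.064, Ywhab row 15763 0.072, Ywhab row 4801 0.12 and Ywhag row 19217 0.32. With Cy3 arrays alone these changed sign. In thymus this gave Sfn row 7246 -0.030 and Ywhag row 19217 0.10. In spleen it gave Sfn row 7246 -0.072. In brain it gave Sfn row 7246 0.15. In liver it gave Ywhab row 15763 0.0063, Ywhab row 5608 0.016 and Ywhag row 19217 -0.43. In brain these arrays called 1 of 6 member rows (Ywhab row 5608, -1.13), 2 of 4 gene means (Ywhab, -0.91, and Ywhae) and 9 of 114 partner rows. Of all brain rows, 3.4% were called lower on these arrays, as were 6.79% of all gene means. The share called higher and the directions of the 9 partner rows are not given here. The partner median on the Cy3 arrays was -0.035 in thymus and 0.0295 in liver. Reading the ratios as Cy5 over Cy3 turned the following. In thymus this gave Ywhab gene mean 0.030, Ywhab row 15763 0.031 and Ywhae row 9554 -0.14. In spleen it gave Sfn row 7246 -0.28, Ywhab gene mean 0.14, Ywhab row 15763 0.16, Ywhab row 4801 0.33 and Ywhae row 9554 0.41. In brain it gave Ywhab gene mean 0.49, Ywhab row 15763 0.49, Ywhab row 4801 0.41, Ywhab row 5608 0.56, Ywhae row 9554 0.19 and Ywhag row 19217 0.54. For thymus minus brain it gave Ywhab -0.46 and Ywhae -0.34. For thymus minus liver it gave Ywhae -0.068. For thymus minus spleen it gave Ywhab -0.11, Ywhae -0.55 and Ywhag -0.33. For spleen minus brain it gave Ywhab -0.35. For spleen minus liver it gave Ywhab 0.17. For brain minus liver it gave Ywhab 0.51 and Ywhae 0.27. The partner median in brain became 0.10. Keeping single arrays put Ywhab row 5608 in spleen at 0.043 and Sfn at -0.28, and the dye term put Sfn in spleen at -0.10. Centring put Ywhab for spleen minus brain at -0.017, scaling put Ywhab row 15763 in liver at 0.014, and the uncorrected thymus array put Ywhab for thymus minus liver at -0.0087. With names at the numbers as listed the Ywhab gene mean was 0.10 in thymus, 0.059 in spleen and 0.053 in liver, and the partner median in liver -0.039. The cause of these changes was not tested, beyond what each setting changes by construction.

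Leaving out each mouse in turn kept all 20 counts of 14-3-3 calls at 0. The partner median crossed 0 in brain (-0.038 to 0.006, with 0.014 for all mice). It did so in liver as well (-0.0255 to 0.009, with -0.011 for all mice). Besides these, 10 results of 14-3-3 rows or genes changed sign. Their ranges (lowest to highest) were -0.093 to 0.070 for Ywhab row 15763 in liver, -0.15 to 0.11 for Ywhab row 5608 in liver, -0.076 to 0.19 for Ywhab in spleen minus brain, -0.52 to 0.10 for Ywhag in thymus minus brain, -0.081 to 0.15 for Sfn in thymus minus liver. The others ranged over -0.14 to 0.19 for Ywhab in thymus minus liver, -0.22 to 0.78 for Ywhag in thymus minus spleen, -0.18 to 0.11 for Ywhab (gene mean) in thymus, -0.35 to 0.11 for Ywhab row 15763 in thymus, -0.050 to 0.37 for Ywhab row 4801 in thymus. Without mouse 1 Ywhag in spleen was -0.38, and without mouse 2 Ywhag in thymus was -0.06. With mouse as replicate block, all 35 values for organ pairs kept their direction and side, with a smallest adjusted p of 0.620 (limma). For Ywhab, Ywhae and Ywhag, which had values in all mice, the mean of paired differences equals the difference of means by construction. Their estimates, such as 0.65 for Ywhae in thymus minus brain, could therefore not change, and only their p-values could. Signal over background is not known from ratios, and the arrays with most missing values are those of spleen mouse 1.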
